A study of Mus musculus with 2 samples.

Results

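The 10 genes described here encode proteins of young neurons: the neurofilament subunits Nefl and Nefm, the related filament protein Ina, neuronal beta tubulin Tubb3, the microtubule regulators Stmn2, Dcx and Map2, the RNA-binding proteins Elavl3 and Elavl4, and the progenitor filament protein Nes. They were chosen by symbol, through the Entrez gene number that names each feature of the expression table, and all 10 were found among 24675 genes with a symbol. RNA came from C57Bl/6 mouse embryos at embryonic day 10.5 and was hybridised to Affymetrix Mouse Gene 2.0 ST arrays. The dorsal group is tissue cut by laser above the dorsal aorta, up to the notochord, and the ventral group is tissue cut from under that vessel. Both pieces came from the same embryos, for which the labels name no treatment or transgene and the sources give no number. Tissue of later embryonic stages was not used here. Each tissue had a single array, labelled as biological replicate 4, and every difference is therefore given without an error or a p-value.

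A neuron that leaves the cell cycle replaces the cytoskeleton of its progenitor. Nestin and vimentin filaments give way to neurofilaments, assembled as mixed polymers in which the light subunit Nefl is the usual core and Nefm, Ina and the heavy subunit Nefh are partners. Tubb3 enters the microtubules, Stmn2 and Dcx adjust their growth and stability, Map2 binds them in the cell body and dendrites, and the ELAV proteins stabilise neuronal transcripts. At this age the spinal cord, the sensory ganglia and the migrating sympathetic and enteric precursors all hold cells of this kind, and axons of the ganglia and cord run through the trunk mesenchyme. The microdissected pieces are bulk tissue, so fewer cells of a type and less RNA per cell cannot be told apart.

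Most of the 10 genes lay at background. The mark of background was the 95th percentile, 3.92 on the log2 scale, of 1360 receptor genes of the olfactory and vomeronasal families, taken over both arrays, which trunk tissue is not thought to express. Their 99th percentile was 5.48, and a fold resting on a level between the marks is less certain. Of the 10 genes, 3 were above 3.92 on both arrays (Nefm, Tubb3 and Stmn2), 1 on the ventral array alone (Nefl), and 6 on neither (Ina, Dcx, Elavl3, Elavl4, Map2 and Nes). Over all 24675 genes, 71.3% were under the mark on both arrays. A level under the mark does not show that a gene was silent: Gapdh, a glycolytic enzyme of every cell, was measured at 2.12 dorsally and 2.05 ventrally. Probes of different genes differ in how strongly they bind, so levels are set against the mark and between the arrays, not between genes.

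**Figure D1:**
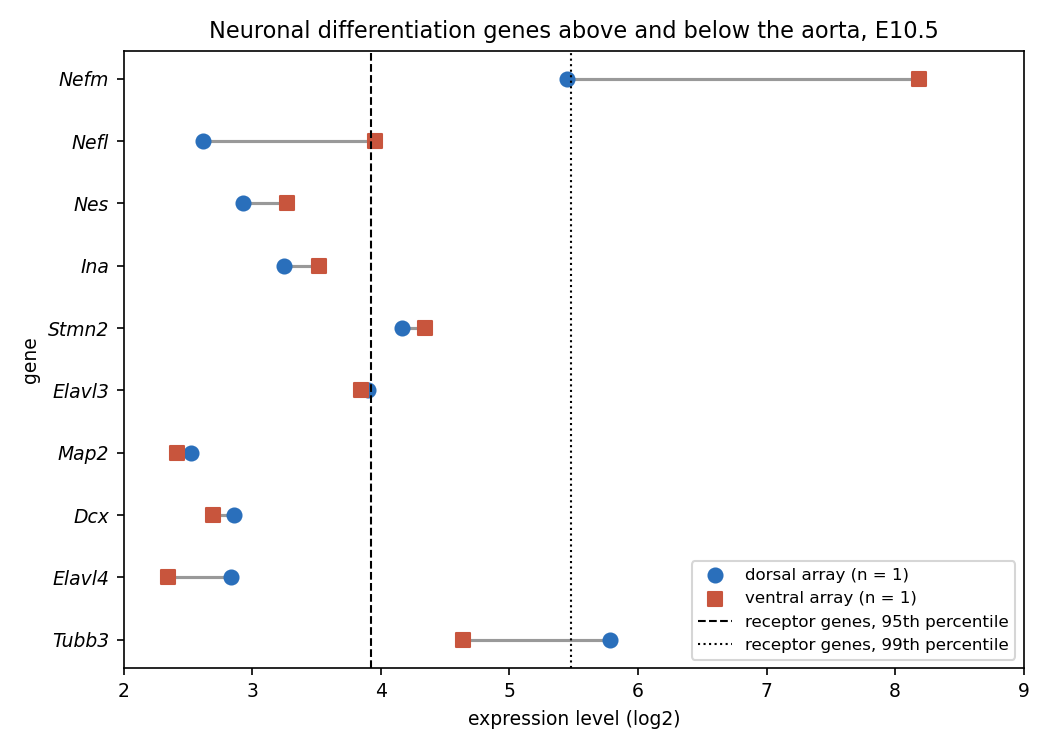
Expression level (log2, horizontal axis) of each of the 10 genes on the dorsal array (circles) and the ventral array (squares), 1 array each, ordered by the difference. Vertical lines mark the 95th (dashed) and 99th (dotted) percentiles of the receptor genes, 3.92 and 5.48; Nefm spans the widest gap, 5.45 to 8.19, and 6 genes lie left of the dashed line on both arrays.

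Nefm, the medium neurofilament subunit, had by far the widest gap. It was measured at 5.45 dorsally and 8.19 ventrally, a difference of 2.74 on the log2 scale, or 6.67-fold higher in ventral tissue. The dorsal level, just under the higher mark of 5.48, was above that of 98.8% of the receptor genes on the same array, and the ventral level exceeded them all. Among the 4752 genes above the mark on both arrays, 50 had a larger difference in the ventral direction. Nefl, the light subunit, went the same way, at 2.62 dorsally and 3.96 ventrally, a measured difference of 1.34. Its dorsal level was at background and its ventral level only just above it, so the fold that these values support is a bound of at least 1.03-fold. Ina, alpha-internexin, the neurofilament protein made early in many neurons, was under the mark on both arrays, at 3.25 and 3.52.

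Nefl and Nefm are next to each other in the order of protein-coding genes on chromosome 14 in the GRCm38.p6 assembly. The nearest other genes on either side were at background, where a shared difference could not be seen. Dock5, beside Nefl, was measured at 2.97 dorsally and 2.94 ventrally, and Adam7, beside Nefm, at 2.56 and 2.74. All 5 measured neighbours within 3 places of Nefm other than Nefl were under the mark on both arrays. The heavy subunit Nefh, which lies elsewhere, was 4.00 dorsally, only just above the mark, and 3.48 ventrally, under it. The dorsal excess that these values support is a bound of at least 1.06-fold, too small to contrast with Nefm. Peripherin, Prph, the filament protein of peripheral neurons, lay under the mark at 3.32 and 3.28.

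Tubb3 went the other way. It was measured at 5.78 dorsally and 4.64 ventrally, a difference of -1.14, or 2.21-fold higher in dorsal tissue. Both levels were above the 95th percentile of the receptor genes and the dorsal level also above the 99th. Of the genes above the mark on both arrays, 255 had a larger difference in the dorsal direction. The neuronal tubulin and the medium neurofilament thus differed in opposite directions between the same pair of arrays.

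Stmn2, a stathmin of growing axons that releases tubulin from microtubule ends, was above the mark on both arrays with almost no gap. It was measured at 4.16 dorsally and 4.34 ventrally, a 1.13-fold excess in ventral tissue. Dcx, doublecortin, a microtubule stabiliser of migrating neurons, was at 2.86 and 2.70. Map2 was at 2.53 and 2.42, close to the receptor genes' medians of 2.40 and 2.29. None of these levels set the tissues apart: the Stmn2 gap was 0.18, and Dcx and Map2 were at background, where a difference was not detectable.

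Elavl3, a neuronal RNA-binding protein, was measured at 3.90 dorsally and 3.85 ventrally, just below 3.92 on both arrays. Elavl4, also known as HuD, was at 2.84 and 2.35. Nes, the intermediate filament of neural and muscle progenitors and of some endothelium, was at 2.92 dorsally and 3.27 ventrally. At such signals no difference in these 3 genes could be detected.

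Counted by size, 3 of the 10 genes were 2-fold or more apart on measured values. A gene entered this count if the higher of its levels reached 3.10, the median of all genes' 2-array means; 7 of the 10 did, and Dcx, Elavl4 and Map2 did not. Nefl and Nefm were 2-fold or more higher ventrally, where 9.44% of all 13982 genes kept by this rule were, and Tubb3 was 2-fold or more higher dorsally, where 4.88% were. Among the 3 genes above the mark on both arrays, 1 was 2-fold or more higher ventrally, against a background of 13.8%, and 1 in dorsal tissue, against 6.65%. With so few genes these counts do not set the group apart from the rest. The median difference of the 7 genes, ventral minus dorsal, was 0.28, beside -0.12 over all kept genes; over all 10 it was 0.06, beside -0.11 over all 24675. Of the 10 genes, 5 were higher in ventral tissue, where 36.6% of all 24675 genes were, and 5 in dorsal tissue. Relative to the -0.12 median of kept genes, the differences were 2.85 for Nefm, 1.46 for Nefl and -1.03 for Tubb3, and Elavl3 and Map2 changed sign, to 0.06 and 0.01.

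**Figure D2:**
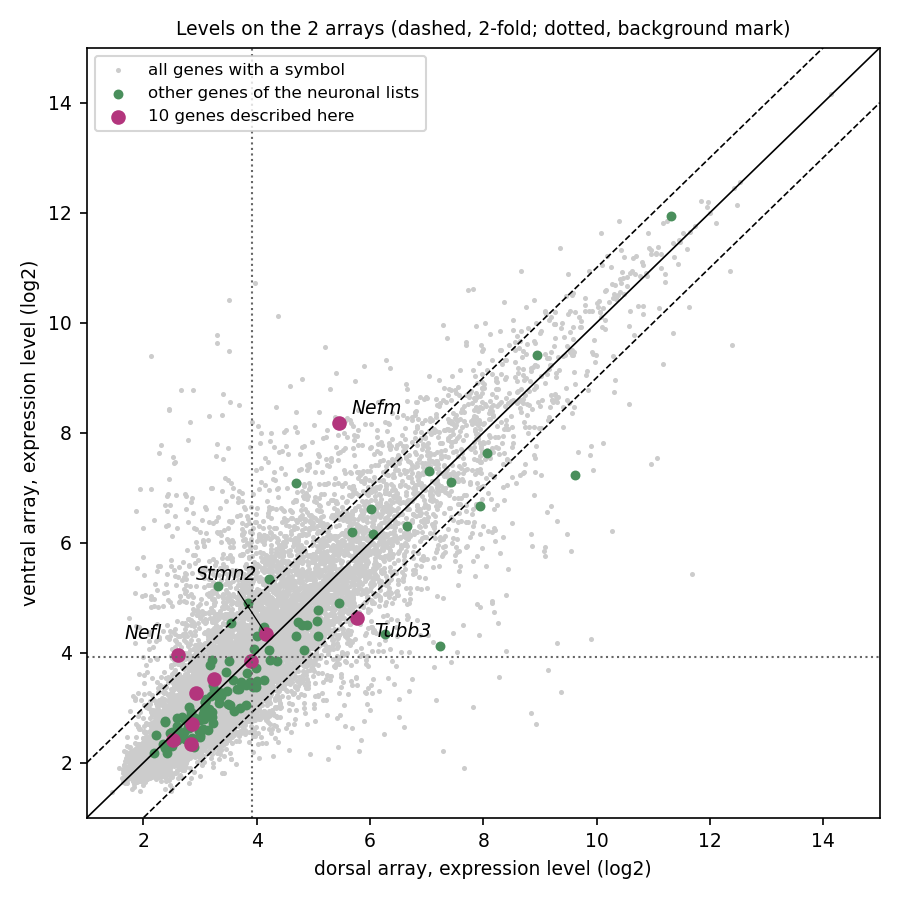
Expression level (log2) on the dorsal array (horizontal axis) and the ventral array (vertical axis) for all 24675 genes with a symbol (grey), the other genes of the neuronal lists (green) and the 10 genes described here (magenta). The solid line is equality, dashed lines are 2-fold and dotted lines the background mark of 3.92; Nefm lies above the upper dashed line, Tubb3 below the lower one, and most of the 10 genes sit in the low corner.

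Related genes were set beside the 10 through 7 lists of neuronal genes. Of 116 listed genes 114 were measured and 75 were kept. Under the mark on both arrays were 75, or 65.8% of those measured, near the 71.3% of all genes. Of the kept genes, 4 were 2-fold or more higher ventrally (Gap43, Sox4, Tubb2a and Tubb6) and 4 in dorsal tissue (Ebf1, Tubb5, Stmn1 and Elavl1). Over all kept genes the shares were 9.44% and 4.88%, or 14.3% in either direction. The counts by list below are to be read beside these shares, and with so few genes they do not set a list apart. The median difference of the kept genes was -0.21, beside -0.12 over all kept genes.

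Among other intermediate filament genes none of 7 kept was 2-fold or more apart. Vim, vimentin, the filament of mesenchyme and neural progenitors, was 8.95 dorsally and 9.41 ventrally, 1.37-fold higher in ventral tissue. Des, the muscle filament desmin, was 3.55 and 4.54, at least 1.53-fold higher in ventral tissue, just short of 2-fold on measured values. With the differences centred on the kept-gene median it passed 2-fold, at 1.11.

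Of 9 kept tubulins other than Tubb3, 2 were 2-fold or more higher ventrally and 1 dorsally. Tubb5, the main beta tubulin of dividing cells, was 9.63 dorsally and 7.23 ventrally, 5.28-fold higher in dorsal tissue, the same direction as Tubb3. Tubb6, a broadly expressed beta tubulin, was 4.21 and 5.33, 2.18-fold higher in ventral tissue, and Tubb2a, rich in neurons, was 3.85 and 4.91, at least 1.98-fold higher there. After quantile normalization of the columns both fell short of 2-fold, at 0.96 and 0.97 on the log2 scale. Tubb2b, a beta tubulin of developing neurons, was 7.43 dorsally and 7.10 ventrally, and Tuba1a, the main alpha tubulin of young neurons, was 11.32 and 11.94, both within 2-fold, as was Tuba1c at 4.13 and 3.51. Tubulin genes are close in sequence, so probes for one may also read another and these values are uncertain.

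Of 9 kept microtubule regulators beside Stmn2, Dcx and Map2, 1 was 2-fold or more apart. Stmn1, the stathmin of dividing cells and of neural precursors, was 6.27 dorsally and 4.34 ventrally, 3.80-fold higher in dorsal tissue. Its relative Stmn3 was 4.72 and 4.56, and Stmn4 was at background, at 2.80 and 2.66. Map1b, the earliest of the microtubule-associated proteins in axons, was 6.01 dorsally and 6.62 ventrally, 1.52-fold higher in ventral tissue. Map4, a microtubule-associated protein of most cells, was 5.09 and 4.78. Mapt, tau, was at background at 3.05 and 2.88, as was the doublecortin relative Dclk1 at 3.16 and 2.97.

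Of 13 kept RNA-binding genes Elavl1 alone was 2-fold or more apart. Elavl1, the ELAV protein made in all cells, was 7.94 dorsally and 6.67 ventrally, 2.41-fold higher in dorsal tissue. Elavl2, a neuronal relative, was 4.21 and 4.04. Rbfox3, the antigen NeuN of mature neurons, was at background, at 3.72 and 3.47. Celf5 and Celf6, neuronal splicing regulators, were higher in dorsal tissue within 2-fold, at 4.69 and 4.30 and at 3.99 and 3.39. Msi1, Musashi of neural progenitors, was 4.13 and 4.47, and Ptbp2, a splicing regulator that replaces Ptbp1 as neurons form, 7.04 and 7.30.

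Among 12 kept proneural and early neuronal transcription factors, 1 was 2-fold or more higher in each direction. Ebf1, a helix-loop-helix factor of neurons, B cells and mesenchyme, was 7.24 dorsally and 4.12 ventrally, 8.71-fold higher in dorsal tissue. Sox4, a factor of young neurons and of many other embryonic cells, was 3.31 and 5.22, at least 2.47-fold higher in ventral tissue. Of 22 measured genes of this list 8 were above the mark on at least 1 array and 63.6% on neither, beside 71.3% of all genes. Ebf3, a relative of Ebf1, was 5.07 dorsally and 4.58 ventrally, and Insm1, a zinc finger factor of neuronal and endocrine precursors, 4.80 and 4.50, both within 2-fold. Neurog2, which starts neurogenesis in cord and ganglia, was above the mark in dorsal tissue alone, at 4.36 against 3.85, as was Scrt2, a neuronal repressor, at 4.23 against 3.87. Neurod1, at 2.91 and 2.82, and Neurod4, at 2.85 and 2.45, were among the 14 under the mark on both arrays.

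Among 13 kept genes of axon growth and adhesion, Gap43 alone was 2-fold or more apart. Gap43, the growth cone phosphoprotein, was 4.70 dorsally and 7.09 ventrally, 5.27-fold higher in ventral tissue. Basp1, a related membrane protein of growth cones, was 8.07 and 7.63, and Dpysl3, a collapsin response mediator, 5.08 and 4.30, both within 2-fold and higher in dorsal tissue. The related Dpysl2 was 6.65 and 6.31, and Dpysl4 3.94 and 3.37. L1cam, an axonal adhesion protein, was at background at 3.11 and 2.93. None of 12 kept synaptic and secretory genes was 2-fold or more apart, where 14.3% of all kept genes were. Under the mark on both arrays were 22 of 25 measured, or 88.0%, beside 71.3% of all genes. Snap25, a vesicle fusion protein, was 2.51 dorsally and 2.56 ventrally. Cplx1 at 4.84 and 4.06, Vamp2 at 5.45 and 4.90, and Syp at 4.89 and 4.51 were above the mark on both arrays.

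**Figure D3:**
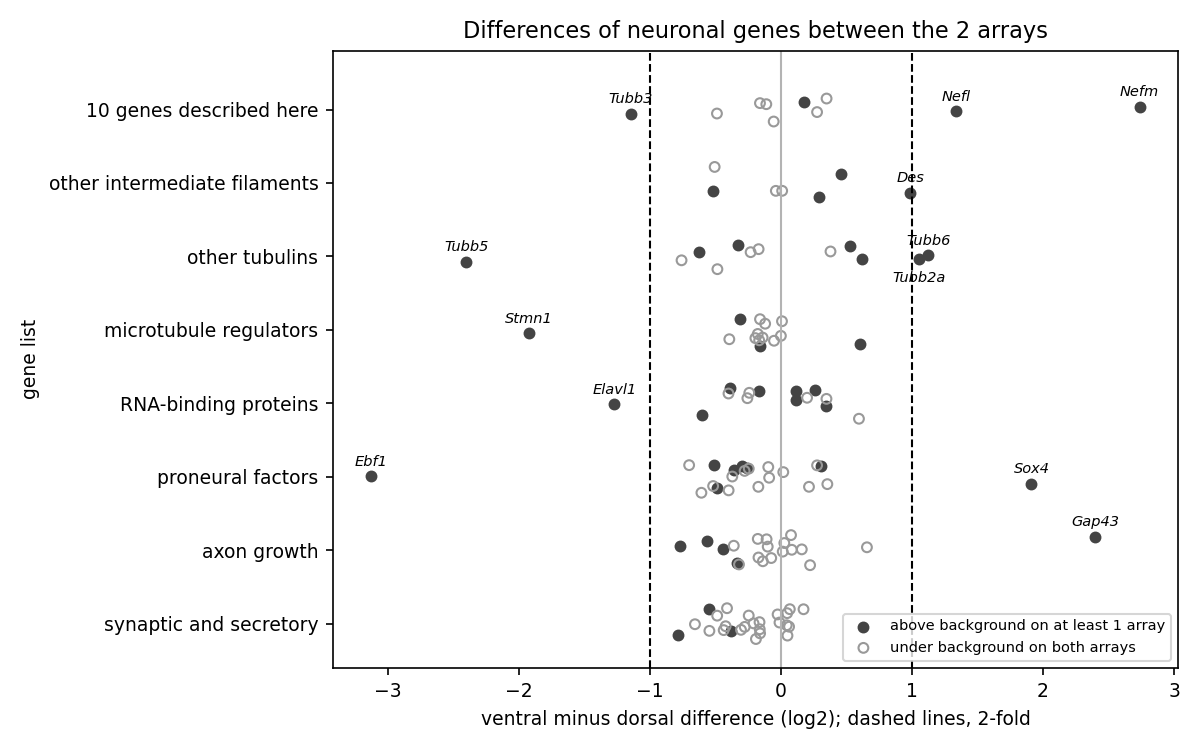
Ventral minus dorsal difference (log2, horizontal axis) of each measured gene in the group of 10 and in 7 lists of related genes; filled points were above the background mark on at least 1 array and open points on neither, and vertical scatter within a row has no meaning. Dashed lines mark 2-fold; Nefm and Gap43 lie farthest to the right, at 2.74 and 2.40, and Ebf1 and Tubb5 farthest to the left, at -3.12 and -2.40.

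The genes of the neuronal lists whose difference came closest to that of Nefm and of Tubb3 were sought among the 29 above the mark on both arrays. The measure was the gap between the differences on this pair of arrays, which cannot separate a shared pattern from a shared size. Nefm, at 2.74, was closest to Gap43, at 2.40, and then far from Tubb6, at 1.12, and Tuba1a, at 0.62. Nefl, at a measured 1.34, was closest to Tubb6, but it has only a lower bound, so this ranking is not interpreted. Tubb3, at -1.14, was closest to Elavl1, at -1.27, and then to Cplx1, at -0.78, and Dpysl3, at -0.77.

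Markers of neural cell types of the trunk were set beside all genes, of which 71.3% were under the mark on both arrays. The dorsal piece was cut only up to the notochord, and the pieces are not known to hold each of these types. Neural crest and glia aside, they were under it about as often. The shares were 75.0% of sensory ganglion and of neural tube progenitor genes, 72.7% of motor neuron and 63.6% of sympathetic and enteric genes. All 9 measured neural crest and Schwann cell precursor genes were under the mark on both arrays, among them Sox10 at 3.22 and 2.97 and Foxd3 at 3.84 and 3.65. Of 8 measured sensory ganglion genes 6 were under it on both, Pou4f1 at 3.69 and 3.02 included. Prdm12 was at 4.44 and 4.10 and Tlx2 at 4.52 and 3.60. Of 11 measured motor neuron genes 8 were under it on both, with Mnx1 at 3.36 and 3.20 and Chat at 2.56 and 2.81. Isl1, a homeobox gene of motor and sensory neurons and of other mesoderm, was 4.89 dorsally and 4.34 ventrally, and Foxp1, also widely expressed outside neurons, 6.99 and 7.77. Onecut1, a homeobox factor of motor neurons and liver, was 4.25 and 3.70. No gene of these 3 lists was 2-fold or more apart.

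Of 11 measured sympathetic and enteric genes 7 were under the mark on both arrays. Tfap2b, a factor of crest derivatives and kidney, was 3.02 dorsally and 4.13 ventrally, at least 1.15-fold higher ventrally and the 1 member of the list 2-fold or more apart on measured values. Ddc, the decarboxylase of dopamine synthesis, was 3.68 and 4.31, at least 1.31-fold higher ventrally. Phox2a, at 3.89 and 3.55, and Dbh, at 2.89 and 3.31, were at background. Hand1 and Hand2, which also mark lateral mesoderm, were above the mark on both arrays, at 5.13 and 4.83 dorsally and 5.47 and 4.82 ventrally. Of 16 measured neural tube progenitor genes 12 were under it on both, with Sox2 at 3.08 and 2.88 and Pax6 at 2.96 and 2.92. Zic2, at 5.03 and 4.85, and Irx3, at 4.24 and 3.99, were above the mark on both arrays, and Lfng, at 4.35 and 3.67, in dorsal tissue alone. Fabp7, the fatty acid carrier of radial glia, was the 1 gene of that list 2-fold apart, at 8.15 dorsally and 6.20 ventrally. Signal summed over the measured genes of a list on the linear scale was 466 dorsally and 221 ventrally for progenitors, but 183 and 148 for the 15 genes other than Fabp7. For motor neuron genes it was 238 and 303, and without Foxp1 it turned to 110 and 85.7. It was 99.8 and 79.1 for sensory ganglia and 165 and 177 for sympathetic genes. For crest and glia it was 77.4 and 77.0, and 63.0 and 64.4 without Foxd3, the brightest gene of that list. All 9 of those crest and glia genes were at background, and most genes of the other lists were too. The median level of all genes was 3.15 dorsally and 3.02 ventrally, so small gaps between sums have no clear meaning. These sums without the brightest gene were added after seeing the data. The part of these cell types in the Nefm and Tubb3 differences was not tested.

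**Figure D4:**
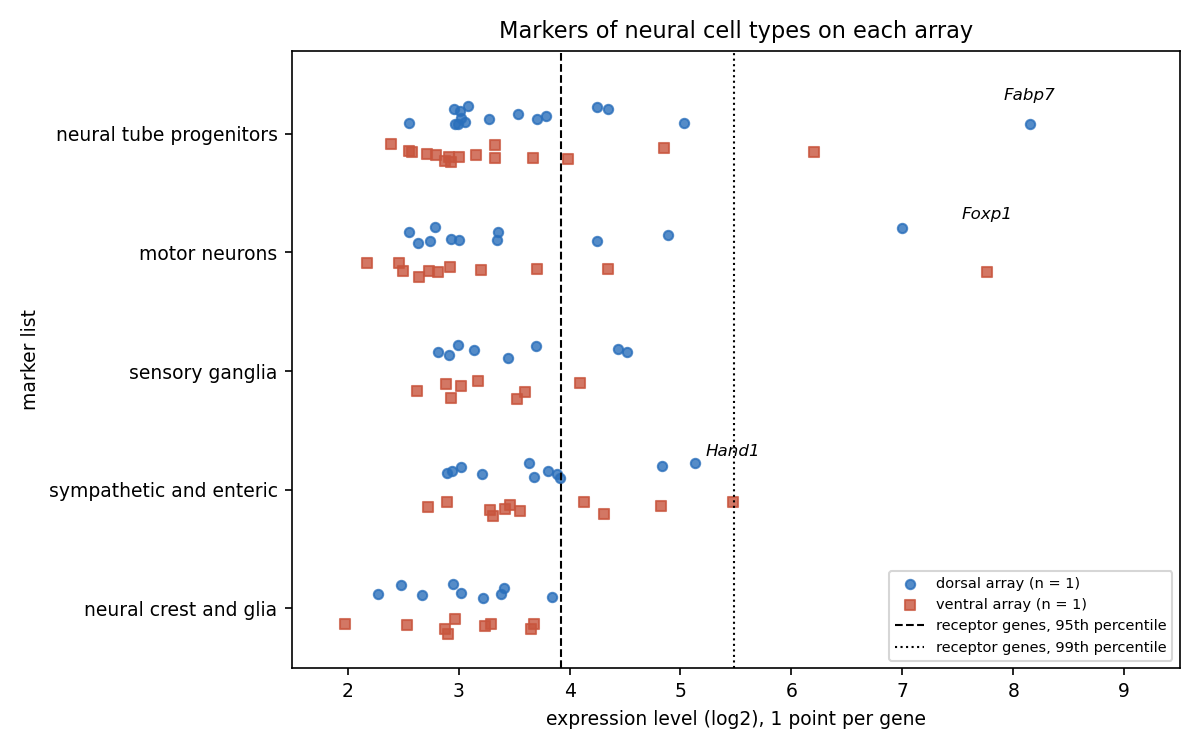
Expression level (log2, horizontal axis) of each measured marker of 5 neural cell types on the dorsal array (circles) and the ventral array (squares), 1 point per gene and array, with the receptor genes' 95th (dashed) and 99th (dotted) percentiles. Most points lie left of the dashed line, and Fabp7 and Foxp1 alone lie beyond the dotted line on both arrays; vertical scatter within a row has no meaning.

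Genes of other tissues of the region were also compared between the 2 arrays. Against the 36.6% of all genes that were higher in ventral tissue, 0 of 9 sclerotome genes were. On measured values all 9 were higher in dorsal tissue, though 3 were under the mark on both arrays, where a direction is not reliable. Of the 9, 3 were 2-fold or more higher dorsally on measured values. Of the 4 above the mark on both arrays 2 were, with Pax9 at 6.15 and 4.02. Of 8 coelomic epithelium genes 7 were higher in ventral tissue, and 4 of these by 2-fold or more on measured values. None of the 8 was above the mark on both arrays, so these 4 folds are lower bounds. The bounds ran from 1.38-fold for Podxl to 6.45-fold for Wt1, at 3.80 dorsally and 6.61 ventrally. Of 10 measured endothelial genes, a cell type that can hold Nes, 5 were higher in ventral and 5 in dorsal tissue. Of the 8 kept, 3 were 2-fold or more higher ventrally on measured values. Of these 3, Cdh5 alone was above the mark on both arrays, at 4.22 and 6.64. The other folds are bounds, of at least 2.34-fold for Emcn and 1.88-fold for Kdr. Eng ran the other way, at 4.09 and 3.53. Over all kept genes, 9.44% were 2-fold or more higher ventrally and 4.88% dorsally. Of 8 kept myotome genes, another possible source of Nes, 1 was 2-fold or more higher dorsally on measured values, Pax7. Its bound was at least 1.20-fold. Pax7 falls short of 2-fold under each scaling tried, though 1 gene of the list was still counted after quantile normalization. Of 6 kept genes of the notochord and floor plate 2 were 2-fold or more higher dorsally on measured values, Shh and Noto. Their bounds were at least 2.29-fold and 1.25-fold, and Noto falls short of 2-fold once centred. Of 5 erythroid genes 1 was 2-fold or more higher dorsally, Klf1, which also falls short once centred. The housekeeping gene Actb, at 8.89 dorsally and 7.60 ventrally, was 2.44-fold higher in dorsal tissue, a wider gap than that of Tubb3; the other 6 kept housekeeping genes were within 2-fold, as were all 7 kept immediate early genes. The part of these tissues in the differences of the 10 genes was not tested.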

How the data were processed

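RNA of 200 to 1000 pg per sample, from 20 µm cryosections, was amplified isothermally from a single primer, per the labels' protocols; amplification from so little RNA can lose or over-represent transcripts. The values are log2 expression levels as the authors deposited them. RMA, run in Affymetrix Expression Console per the submitters' processing notes, subtracts background, normalizes by quantiles and summarises probes; versions, build and the set of arrays normalized are not given in the sources used. Of 25429 features, 24675 had 1 symbol in the platform annotation and 754 none; all 24675 were found by gene number in the GRCm38.p6 RefSeq table with the same symbol. No coordinates are printed, since the probe annotation's build is not stated.

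Titles gave the tissue of each array. Ventral minus dorsal log2 differences were described by size. Genes were kept if the higher level reached 3.10, and counted at 2-fold. Where 1 array was under the receptor genes' 95th percentile, the fold is a lower bound against that percentile. The 10 genes, the other 20 lists (257 genes in all, 244 measured) and the receptor reference were chosen with earlier results of these data known. The naming rule was all 10 genes, up to 5 genes per list with the largest differences among those above background, and close relatives of the 10. Not every gene it allows is named in the non-neural lists, and Insm1, Nefl's and Nefm's neighbours and list members under the mark were named after their values were seen. Alternatives were quantile normalization, a loess on level (span 0.3), centring, other floors, folds of 1.5 and 3, and means. The steps were tested on simulated data, with shifts placed only in genes above the mark and noise narrower than the spread of the measured differences. Recovery of differences near background was not tested. Python 3.11.15, numpy 2.4.6, pandas 2.3.3, statsmodels 0.14.6 and matplotlib 3.10.9 were used.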

Additional observations from a re-analysis of the deposited data

How the results depend on the processing

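No paired analysis was possible because each tissue had 1 array, and leaving out an array leaves no comparison. Nefm stayed at least 2-fold higher in ventral tissue under quantile normalization, centring and the loess, at 2.45 to 2.85 on the log2 scale and Tubb3 2-fold or more higher dorsally, at -1.36 to -1.03. Nefl, with its dorsal level at background, keeps only its lower bound of 1.03-fold, which these settings do not test. At a 3-fold threshold 1 of the 10 genes was higher ventrally and 0 dorsally, beside 626 and 228 of all 13982 kept genes. These are sizes with no test, so no p-value exists for them. Among genes above background on both arrays, an alternative chosen after seeing the data, 1 was higher in ventral tissue. The median difference of the kept genes among the 10 ran from 0.06 with no floor, which brings in all 10, to 0.76 with the floor at the receptor genes' 95th percentile, which keeps 4. Of the other neuronal genes, the 4 higher in ventral tissue became 2 after quantile normalization, 2 at 3-fold and 2 above background on both arrays. At 1.5-fold, 9 of 75 kept were higher in ventral and 11 in dorsal tissue, beside 2286 and 2099 of all 13982 kept genes. After quantile normalization 1157 of all 13796 kept genes were 2-fold or more higher ventrally. The median difference of the other neuronal genes stayed below 0 under every alternative run, from -0.31 to -0.09. Over all kept genes, the share of genes 2-fold apart that were higher in ventral tissue was 65.9%, or 74.3% once centred on the median of -0.12 and 59.2% after quantile normalization. Of the 244 measured genes of the lists, the call at 2-fold changed for 6 under centring, 6 under quantile normalization and 5 under the loess, with no reversal of direction in a gene 2-fold apart. The number of arrays and the closeness of most levels to background limit every value.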
